A study of Mus musculus with 11 samples.

Results

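The genes described here are the homeobox genes *Hoxa2* and *Hoxb1* and the cofactor genes *Meis1*, *Meis2*, *Meis3*, *Pbx2* and *Pbx3*, 7 of the 38561 genes counted in facial process explants of mouse embryos. They were found by matching their symbols to the Ensembl identifiers of the counts, and all 7 passed the filter on low counts that left 17317 genes for testing. The 7 genes had been chosen from earlier results on these same libraries, and which comparison led to each choice is not recorded. Their levels and their changes between genotypes are therefore given as a description, with no p-value printed for any of the 7. Calls under a p threshold are counted for them below, but nothing is read from those counts.

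RNA was sequenced from explants of mixed strain at embryonic day 10.5, dissected to include the mandibular and maxillary parts of the first branchial arch and the nasal processes. The 11 libraries are 2 of wild type (wt) embryos and 3 each of embryos homozygous for a mutation of *Wnt9b* (Wnt9bKO), homozygous for a mutation of *Rspo2* (Rspo2KO) and homozygous for both (DKO). *Wnt9b* encodes a WNT ligand made in the facial ectoderm, and *Rspo2* encodes an R-spondin that amplifies WNT signals, and the study asked how the pair acts together in the face. Both mutations are carried by the whole embryo. The methods say that several embryos of each genotype were used in most experiments, but no source used here ties a library to its own embryo or litter, so errors and p-values measure only the spread between these libraries.

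HOX proteins give cells of the hindbrain and of the neural crest their position along the head-to-tail axis. They bind DNA together with PBX and MEIS proteins, which belong to the TALE (three-amino-acid loop extension) class of homeobox factors. *Hoxa2* is the selector gene of the second branchial arch and is active in the hindbrain behind its most anterior segment, while *Hoxb1* marks the fourth hindbrain segment. The neural crest of the first arch and of the nasal processes is known for being free of *Hox* expression, whereas *Pbx* and *Meis* genes are widely active in it.

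The windows upstream of the *Hox* genes are shown because *Hoxa2* and *Hoxb1* were the members with large differences between libraries, and because both are known to be bound by PBX, MEIS and HOX proteins. RefSeq promoter windows (GRCm38.p6), which run from 250 bases before to 50 bases after the start of a gene, were found for 6 of the 7 genes and were not used here for *Pbx3*. The letters TGATNNAT, a joint PBX and HOX motif in which N is any base, and TGACAG, a MEIS motif, were searched on both strands. The 250 bases before the start are printed 5′ to 3′ on the strand of the gene, and capitals mark the matches. The *Hoxa2* window is chr6:52164832-52165081 on the minus strand and the *Hoxb1* window is chr11:96365508-96365757 on the plus strand.
Hoxa2: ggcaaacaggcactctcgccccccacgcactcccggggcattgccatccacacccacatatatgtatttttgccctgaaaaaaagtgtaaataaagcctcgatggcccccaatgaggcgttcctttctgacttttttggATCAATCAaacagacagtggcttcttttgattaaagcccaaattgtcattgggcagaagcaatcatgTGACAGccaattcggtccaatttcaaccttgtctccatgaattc
Hoxb1: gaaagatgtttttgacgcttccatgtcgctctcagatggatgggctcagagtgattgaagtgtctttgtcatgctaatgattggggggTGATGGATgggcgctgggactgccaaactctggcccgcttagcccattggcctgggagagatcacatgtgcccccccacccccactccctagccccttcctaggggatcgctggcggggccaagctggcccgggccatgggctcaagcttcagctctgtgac

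In the *Hoxa2* window, TGATTGAT stood on the opposite strand from -111 to -104 relative to the start, and TGACAG stood on the gene's strand from -44 to -39. In the *Hoxb1* window, TGATGGAT stood on the gene's strand from -162 to -155, and TGACAG was not found. Neither set of letters was found in the windows of *Meis1*, *Meis2*, *Meis3* and *Pbx2*. The matches in a window did not overlap. Of 32851 RefSeq promoters of the same length, 8.85% held TGATNNAT and 19.2% held TGACAG, so such matches are common and describe the sequence only.

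Among the 11 libraries, the library labelled Wnt9bKO 2 had *Rspo2* at 2.86 CPM (reads of a gene relative to the TMM-scaled total of its library), below each Rspo2KO library (4.74 to 6.59 CPM). The library labelled DKO 3 had *Rspo2* at 15.5 CPM, within the wt range of 14.8 to 16.0 CPM. Both go against their labels. *Wnt9b* itself was not lower in the *Wnt9b* mutants, at 16.2 to 23.3 CPM in Wnt9bKO and 18.3 to 20.2 CPM in DKO against 10.8 and 13.4 CPM in wt, and a count over the whole gene cannot show a deleted part. Summed small nuclear RNA genes lay at 352 to 420 CPM in the wt and Rspo2KO libraries and at 70.1 to 82.7 CPM in the Wnt9bKO and DKO libraries. *Xist* was at 680 to 1469 CPM in the wt and DKO libraries and at 0.82 to 1.94 CPM in the others. Rspo2KO against wt and DKO against Wnt9bKO each lie on 1 side of the small nuclear RNA split but across the *Xist* split, DKO against wt and Wnt9bKO against Rspo2KO lie the other way round, and Wnt9bKO against wt and DKO against Rspo2KO cross both, so that these differences cannot be told apart from genotype. Summed heart markers were at 82.4 CPM in wt 1 and at most 10.8 CPM elsewhere. Total counts ranged from 11136166 to 18017344.

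*Hoxa2* (ENSMUSG00000014704, chr6:52162417-52164831, minus strand) was low in wt, nearly absent in Wnt9bKO, and split among the DKO libraries. Its level was 4.73 and 5.07 CPM in wt, 6.74, 7.59 and 7.01 CPM in Rspo2KO, 0.16, 0.36 and 0.00 CPM in Wnt9bKO, and 1.12, 4.98 and 4.67 CPM in the libraries labelled DKO 1, 2 and 3. Every Wnt9bKO library was below every other library, the Rspo2KO libraries were all above the wt libraries, and DKO 2 and 3 stood close to the wt libraries while DKO 1 lay between. These levels rest on 53 and 84 reads in wt and on 3, 6 and 0 reads in Wnt9bKO, where 3 reads correspond to 0.16 to 0.18 CPM. Counting error alone left the wt level 28.7-fold above that of Wnt9bKO, with an exact 95% interval from 14.7 to 64.0.

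In the fit across all genes, edgeR's quasi-likelihood model, the log2 fold change of *Hoxa2* was -4.77 (SE 0.65) for Wnt9bKO against wt and 0.53 (SE 0.43) for Rspo2KO against wt. For DKO against wt it was -0.46 (SE 0.44), and for DKO against Wnt9bKO it was 4.31 (SE 0.63). The DKO mean of 3.59 CPM ± 2.15 (SD, n = 3) hides the split between its libraries, and without DKO 1 the change against wt was -0.03. Without the libraries labelled Wnt9bKO 2 and DKO 3, whose *Rspo2* level goes against their labels, the change was -5.74 for Wnt9bKO against wt and 5.03 for DKO against Wnt9bKO. DKO 1, the lower of the libraries then left in DKO, was still above Wnt9bKO 1 and 3.

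*Hoxb1* (ENSMUSG00000018973, chr11:96365752-96368256, plus strand) had a similar pattern at a lower level. It was at 1.07 and 2.17 CPM in wt, 2.10, 2.00 and 1.90 CPM in Rspo2KO, 0.05, 0.00 and 0.06 CPM in Wnt9bKO, and 0.00, 1.56 and 0.67 CPM in DKO 1, 2 and 3. The Wnt9bKO libraries together held 2 reads of the gene against 48 in wt, and DKO 1 held none, which allows up to 0.176 CPM there. The Wnt9bKO libraries lay below all wt and Rspo2KO libraries but overlapped DKO 1. The wt level was 45.2-fold above that of Wnt9bKO, with an interval from 11.8 to 384 for counting error alone. *Hoxb1* lies on the same chromosome as *Wnt9b*, 7.36 Mb from it.

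The fitted log2 fold change of *Hoxb1* was -5.19 (SE 1.06) for Wnt9bKO against wt, 0.25 (SE 0.60) for Rspo2KO against wt and -1.19 (SE 0.66) for DKO against wt. The last value ranged over the alternatives from -2.32 without DKO 2 to -0.08. It was -0.59 without DKO 1, -0.55 without wt 2 and -0.08 without DKO 1, Wnt9bKO 2 and DKO 3. For DKO against Wnt9bKO it was 4.0 (SE 1.13), with DKO 1 inside the range of Wnt9bKO. Without DKO 1 that value was 4.6 and the groups no longer overlapped. Without the libraries labelled Wnt9bKO 2 and DKO 3 it was 3.58, and Wnt9bKO against wt was -4.72.

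**Figure D1:**
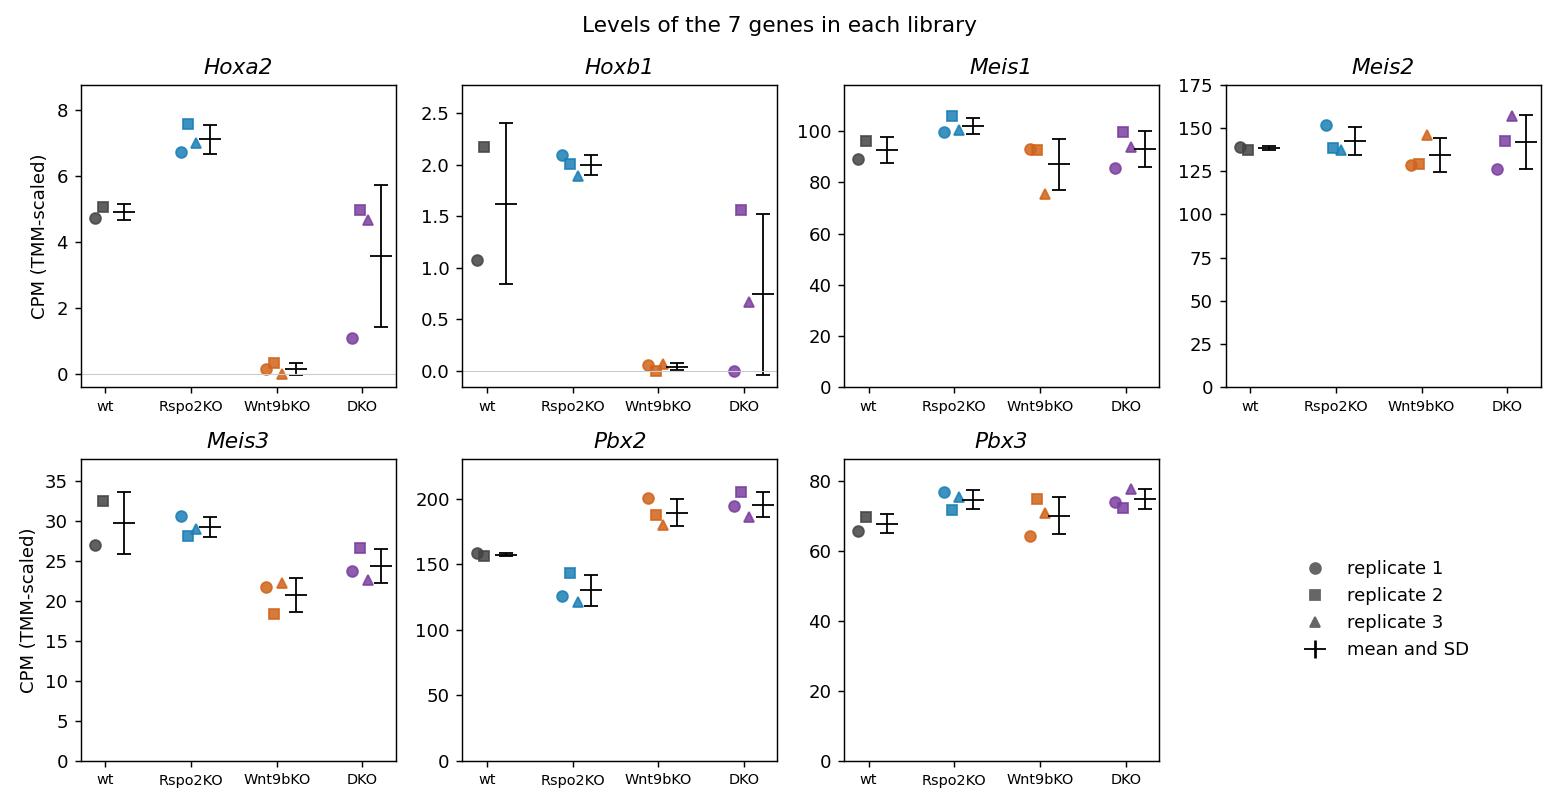
Level of each of the 7 genes in CPM (vertical axis, linear) in the 11 libraries by genotype, with 1 point per library, the symbol giving the replicate number, and the mean and SD of the group beside it. *Hoxa2* is at most 0.36 CPM in Wnt9bKO and 1.12 CPM in DKO 1, *Hoxb1* is at 0 to 0.06 CPM in these 4 libraries, and *Pbx2* is highest in Wnt9bKO and DKO.

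The MEIS genes are expressed throughout the facial mesenchyme, and their proteins bind DNA both alone and together with PBX. *Meis1* (ENSMUSG00000020160, chr11:18879817-19018985, minus strand) was at 89.0 and 96.3 CPM in wt, 99.8, 106 and 100 CPM in Rspo2KO, 93.1, 92.7 and 75.6 CPM in Wnt9bKO, and 85.8, 99.5 and 93.9 CPM in DKO. *Meis2* (ENSMUSG00000027210, chr2:115863064-116065839, minus strand) was at 139 and 138 CPM in wt, 152, 138 and 137 CPM in Rspo2KO, 129, 129 and 146 CPM in Wnt9bKO, and 126, 143 and 157 CPM in DKO. For both genes the wt libraries lay within the range of the Wnt9bKO and DKO libraries together, and the single library Wnt9bKO 3 gave the lowest *Meis1* level.

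The change of *Meis1* was -0.09 (95% interval -0.33 to 0.15) for Wnt9bKO against wt, 0.14 (-0.10 to 0.38) for Rspo2KO against wt and 0.01 (-0.23 to 0.25) for DKO against wt on the log2 scale. That of *Meis2* was -0.04 (-0.28 to 0.20), 0.04 (-0.20 to 0.28) and 0.04 (-0.20 to 0.27) in the same comparisons. The levels of these cofactor genes thus stayed within narrow bounds in the libraries where *Hoxa2* and *Hoxb1* were nearly absent. This depends on the treatment of GC content and gene length: with an offset for both, the change in Wnt9bKO against wt was -0.37 for *Meis1* and -0.37 for *Meis2*.

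*Meis3* (ENSMUSG00000041420, chr7:16175090-16186504, plus strand), which is known for its part in hindbrain patterning in fish and frogs, was lower in Wnt9bKO than in wt. It was at 27.0 and 32.4 CPM in wt, 30.6, 28.1 and 29.0 CPM in Rspo2KO, 21.7, 18.3 and 22.2 CPM in Wnt9bKO, and 23.8, 26.7 and 22.6 CPM in DKO. All 6 libraries with mutated *Wnt9b* lay below all 5 others, and the Wnt9bKO libraries lay below the DKO libraries. The log2 fold change was -0.52 (SE 0.13) for Wnt9bKO against wt, -0.29 (SE 0.13) for DKO against wt and -0.03 (SE 0.13) for Rspo2KO against wt. Without the library wt 2, which had the highest level, the change in Wnt9bKO was -0.38 and no longer called, and without the library wt 1 it stayed called. With the offset for GC content and length it was -0.39, close to the offset values of *Meis1* and *Meis2*.

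*Pbx2* (ENSMUSG00000034673, chr17:34591266-34597400, plus strand), a PBX factor active in the midface, was the only member with a higher level where *Wnt9b* was mutated and a lower level in Rspo2KO. It was at 158 and 156 CPM in wt, 126, 143 and 121 CPM in Rspo2KO, 200, 187 and 180 CPM in Wnt9bKO, and 194, 205 and 186 CPM in DKO. The wt libraries lay between the Rspo2KO libraries and the *Wnt9b* mutant libraries with no overlap, and Wnt9bKO and DKO overlapped. The log2 fold change was 0.27 (SE 0.10) for Wnt9bKO against wt, -0.27 (SE 0.10) for Rspo2KO against wt, 0.31 (SE 0.10) for DKO against wt and 0.05 (SE 0.09) for DKO against Wnt9bKO. Against Rspo2KO it was 0.54 (SE 0.09) in Wnt9bKO and 0.59 (SE 0.09) in DKO, values that share the Rspo2KO libraries. These differences follow the small nuclear RNA split except for the step from wt to Rspo2KO.

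*Pbx3* (ENSMUSG00000038718, chr2:34171457-34373142, minus strand), whose product can stand in for other PBX proteins, differed little between the genotypes. It was at 65.8 and 69.7 CPM in wt, 76.9, 71.6 and 75.4 CPM in Rspo2KO, 64.4, 74.9 and 70.8 CPM in Wnt9bKO, and 74.1, 72.4 and 77.9 CPM in DKO. The wt libraries lay below the Rspo2KO and DKO libraries and within the range of Wnt9bKO. The log2 fold change was 0.05 (95% interval -0.17 to 0.26), 0.14 (-0.07 to 0.35) and 0.14 (-0.07 to 0.36) for Wnt9bKO, Rspo2KO and DKO against wt.

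Per kilobase of exon, the wt levels followed the order *Pbx2* (43.2 CPM per kb), *Meis2* (11.5), *Pbx3* (11.1), *Meis3* (9.36), *Meis1* (8.80), *Hoxa2* (2.76) and *Hoxb1* (0.70). The ranges of *Meis3* and *Meis1* overlapped in wt, so their order there is within the spread, while *Meis2* (11.4 to 11.6) and *Pbx3* (10.8 to 11.4) lay next to each other. In the Rspo2KO, Wnt9bKO and DKO libraries *Pbx3* came just above *Meis2*, with overlapping ranges. *Pbx2* stood first and the *Hox* genes last in all 4 genotypes. Exon lengths cover all annotated transcripts of a gene, and 227 bases of the *Pbx2* exons (6.24%) overlap *Gpsm3* on the same strand, 267 bases of the *Hoxa2* exons (15.0%) overlap the gene model *Gm28308*, and part of *Meis1* overlaps *Gm16140* on the opposite strand and *Gm37818*, where reads cannot be told apart with certainty.

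With an adjusted p below 0.05 in edgeR as the rule for a call, 3 of the 7 genes were called for Wnt9bKO against wt (*Hoxa2*, *Hoxb1* and *Meis3*, all lower), where 32.8% of all genes tested were called. For DKO against wt 1 was called (*Pbx2*, higher) against 27.5% of all genes, and for Rspo2KO against wt 0 were called against 0.0346%, with 1 at an unadjusted p below 0.05 and 0 in DESeq2. For DKO against Wnt9bKO 1 was called (*Hoxa2*, higher) against 0.121%, that is 21 genes in all. For DKO against Rspo2KO 1 was called (*Pbx2*, higher) against 18.2%, and for Wnt9bKO against Rspo2KO 4 were called (*Hoxa2*, *Hoxb1* and *Meis3* lower, *Pbx2* higher) against 26.0%. For the interaction of the genotypes, the departure of DKO from the summed log2 changes of the single mutants, 0 were called against 0.0635%, with 3 at an unadjusted p below 0.05 and 0 in DESeq2. There the value was 3.78 (SE 0.80) for *Hoxa2*, 3.75 (SE 1.34) for *Hoxb1* and 0.32 (SE 0.14) for *Pbx2*. The comparisons share libraries, and since the genes were chosen on these data nothing is read from the counts. The *Pbx2* call in DKO against wt was lost without wt 1, wt 2, DKO 1 or DKO 2, and the *Hoxa2* call in DKO against Wnt9bKO was lost without Wnt9bKO 3 or without DKO 3. *Hoxb1* was called lower in DKO against wt and against Rspo2KO when DKO 2 was left out, and higher in DKO against Wnt9bKO when DKO 1 was left out.

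Other genes of the Hox clusters were looked up in a list of 39, of which 38 matched and 4 had enough reads to be tested. *Hoxb2*, a neighbour of *Hoxb1* that is active in the hindbrain, was at 0.98 and 1.57 CPM in wt, 1.57, 2.55 and 1.90 CPM in Rspo2KO, 0.21, 0.18 and 0.06 CPM in Wnt9bKO, and 0.18, 0.87 and 0.67 CPM in DKO. It was lower in Wnt9bKO than in wt (log2 fold change -3.03, SE 0.60, edgeR adjusted p = 0.00165) and had the same order of DKO libraries as *Hoxb1*. *Hoxb3* reached at most 0.67 CPM and was lower in Wnt9bKO than in Rspo2KO (-2.77, SE 0.80, adjusted p = 0.0204), on 4 against 26 reads, where DESeq2 called *Hoxa2*, *Hoxb1* and *Hoxb2* but not *Hoxb3*. In DKO against Rspo2KO *Hoxb2* was called lower (-1.82, SE 0.41, adjusted p = 0.00749), a call lost without DKO 1, Wnt9bKO 2 and DKO 3 together. The 34 matched genes that were not tested had at most 11 reads in a library, and 9 had none in any library, so these genes had too few reads to compare the genotypes.

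Transcription factors and receptors of the hindbrain formed a list of 16 genes, of which 14 were tested. Of these, 5 were lower, among them *Lbx1*, *Ptf1a*, *Atoh1* and *Epha4*, and 1 was higher (*Gata3*) in Wnt9bKO than in wt, 42.9% of those tested beside 32.8% of all genes. *Lbx1*, a factor of dorsal hindbrain and spinal interneurons, was at 1.61 and 1.57 CPM in wt, at most 0.32 CPM in Wnt9bKO, and 0.23, 0.9965 and 0.67 CPM in DKO (Wnt9bKO against wt -3.31, SE 0.62, adjusted p = 0.00126). *Atoh1*, a factor of the rhombic lip, had no reads in the Wnt9bKO libraries, was at least 6.49-fold lower there than the wt mean of 1.17 CPM when 3 reads per library are taken as the floor, and was at 0.18, 0.00 and 2.31 CPM in DKO 1, 2 and 3. Thus *Atoh1* was not detected in DKO 2, where *Hoxa2* was highest among the DKO libraries. *Ptf1a*, a factor of inhibitory neurons, had 1 library with reads in Wnt9bKO (0.16 CPM) against 0.98 and 0.66 CPM in wt, a call made by edgeR (adjusted p = 0.00627) and not by DESeq2. *Gata3*, a factor of hindbrain, ear and neuron development, rose by 1.20 (SE 0.33, adjusted p = 0.013), and *Epha4*, a receptor of hindbrain segment borders named here after its value was seen, fell by 0.31 (SE 0.11, adjusted p = 0.0372). *Egr2*, which marks other hindbrain segments and was picked after its values were seen, was not called for Wnt9bKO against wt (-1.07, SE 0.51, adjusted p = 0.123). For Rspo2KO against wt edgeR called 0 of the 14 genes, with 0 at an unadjusted p below 0.05 and 0 called by DESeq2. In DKO against wt 1 was called (*Ptf1a*, lower, by edgeR and not by DESeq2), 7.14% beside 27.5% of all genes. In DKO against Rspo2KO 1 was called (*Lbx1*, -1.78, SE 0.43, adjusted p = 0.0112), 7.14% beside 18.2%. In Wnt9bKO against Rspo2KO 4 were lower, among them *Lbx1*, *Ptf1a* and *Atoh1*, 28.6% beside 26.0%.

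**Figure D2:**
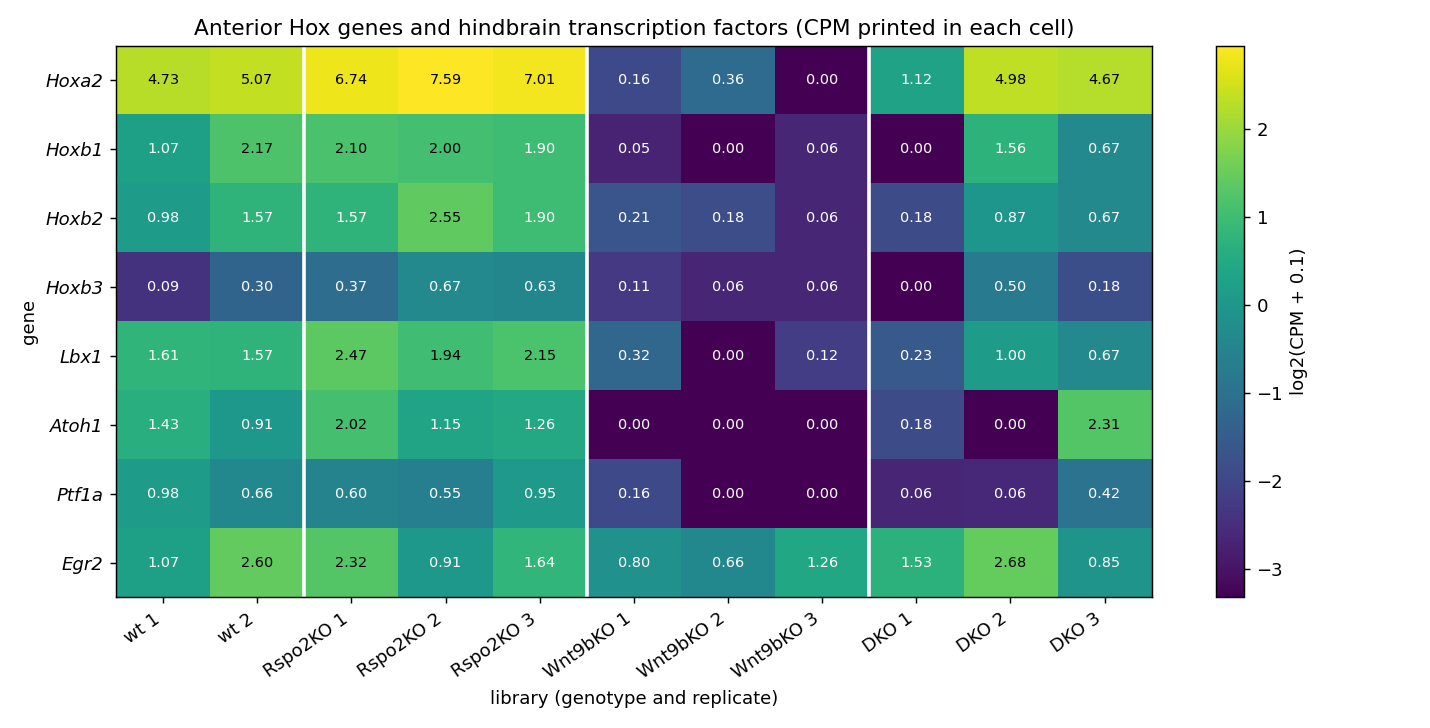
CPM of 4 *Hox* genes and 4 hindbrain transcription factors (rows) in the 11 libraries (columns, white lines between genotypes), with colour on the log2(CPM + 0.1) scale. *Hoxa2*, *Hoxb1*, *Hoxb2* and *Lbx1* are darker in the 3 Wnt9bKO libraries and in DKO 1 than in the wt libraries. In DKO 3 each of these genes also lies below both wt libraries (*Hoxa2* narrowly), and in DKO 2 *Hoxb2* and *Lbx1* do. *Egr2* is at 1.07 and 2.60 CPM in wt, 0.80, 0.66 and 1.26 CPM in Wnt9bKO, and up to 2.68 CPM in DKO 2.

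In bulk samples fewer cells of a type and less RNA per cell cannot be told apart, which holds for each of these genes. Markers of other tissues moved as well. Over a list of 11 neuron markers, the summed level was 418 to 659 CPM in Wnt9bKO, 658 and 767 CPM in wt, 824 to 961 CPM in Rspo2KO and 803 to 889 CPM in DKO, and 2 markers (*Tubb3* and *Nefl*, named after their values were seen) were lower in Wnt9bKO than in wt, 18.2% beside the 32.8% of all genes called in either direction. In DKO against wt 5 of the 11 were higher, 45.5% beside 27.5%, and in Wnt9bKO against Rspo2KO 6 were lower, 54.5% beside 26.0%. The lowest neuron sum in DKO, 803 CPM, was that of DKO 1. A sum over markers of neurons in general cannot show the share of hindbrain cells in a library, which was not tested. Over 10 forebrain and eye markers, 8 were higher in Wnt9bKO than in wt (80.0% beside 32.8%) and 5 in DKO than in wt (50% beside 27.5%), and the sum was 149 to 302 CPM in Wnt9bKO, 169 to 209 CPM in DKO, 137 to 156 CPM in Rspo2KO and 117 to 133 CPM in wt. Over 6 neural crest and glia markers the sum was 158 to 173 CPM in Rspo2KO, 122 and 144 CPM in wt, 113 to 131 CPM in DKO and 72.7 to 100 CPM in Wnt9bKO, and 2 (*Sox10* and *Fabp7*, named after their values were seen) were lower in Wnt9bKO than in wt, 33.3% beside 32.8%. Over 17 facial mesenchyme markers the sum was 637 to 1151 CPM in Wnt9bKO, 726 to 882 CPM in DKO, 696 to 764 CPM in Rspo2KO and 904 and 945 CPM in wt. Over 8 erythroid markers it was 1843 to 2447 CPM in Wnt9bKO, 1791 to 2909 CPM in DKO and 3990 to 5833 CPM in wt and Rspo2KO. The part of these differences in the levels of the *Hox* genes was not tested.

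The genes most like *Hoxa2* were found by Pearson correlation of log2 CPM over the 11 libraries among 14853 other genes with a mean of at least 1 CPM, as a description. Among the closest 5 were *Pou3f2* (r = 0.965), *Lhx1* (0.957), *Adcyap1r1* (0.957) and *1190007I07Rik* (0.954). For *Hoxb1* they included *Evx1os* (0.977), *Glra1* (0.971), *Vxn* (0.965) and *Kbtbd11* (0.961). The correlation between *Hoxa2* and *Hoxb1* was 0.884. In *Hoxa2*, *Hoxb1* and each gene named beside them, the Wnt9bKO libraries and DKO 1 lay below the other 7 libraries. For *Lhx1* and *1190007I07Rik*, however, DKO 1 was nearer to those 7 than to Wnt9bKO. *Lhx1* was at 2.995 CPM in DKO 1, at most 1.544 CPM in Wnt9bKO and at least 3.675 CPM elsewhere. *1190007I07Rik* was at 4.522 CPM in DKO 1, at most 3.398 CPM in Wnt9bKO and at least 5.018 CPM elsewhere. Such a split can raise a pooled correlation, and its share in these values was not tested. On deviations from the genotype means the values of these genes were 0.543 (*Lhx1*) to 0.815 (*Adcyap1r1*) for *Hoxa2* and 0.897 (*Kbtbd11*) to 0.933 (*Glra1*) for *Hoxb1*. The distance of DKO 1 from DKO 2 and DKO 3 lies within a genotype, so it remains in all values on these deviations. Spearman's rho was 0.736 (*Pou3f2*) to 0.955 (*Adcyap1r1*) for those named beside *Hoxa2* and 0.764 (*Vxn*) to 0.891 (*Evx1os* and *Kbtbd11*) for those named beside *Hoxb1*. *Evx1os* is an antisense gene, and without a stated strand setting its reads cannot be told from those of an overlapping gene.

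By pooled Pearson correlation the cofactors were less like *Hoxa2*, with r of 0.763 for *Meis3*, 0.760 for *Meis1*, 0.370 for *Meis2*, 0.319 for *Pbx3* and -0.576 for *Pbx2*. This order did not hold for the other measures. Spearman's rho was 0.882 for *Meis1* and 0.855 for *Meis3*, above the 0.736 of *Pou3f2*. It was 0.273 for *Pbx3*, 0.173 for *Meis2* and -0.682 for *Pbx2*. On deviations from the genotype means *Meis1* was at 0.848, above the genes named beside *Hoxa2* (0.543 to 0.815). *Meis3* was at -0.242, and the remaining cofactors lay at 0.162 (*Pbx3*) to 0.216 (*Pbx2*).

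**Figure D3:**
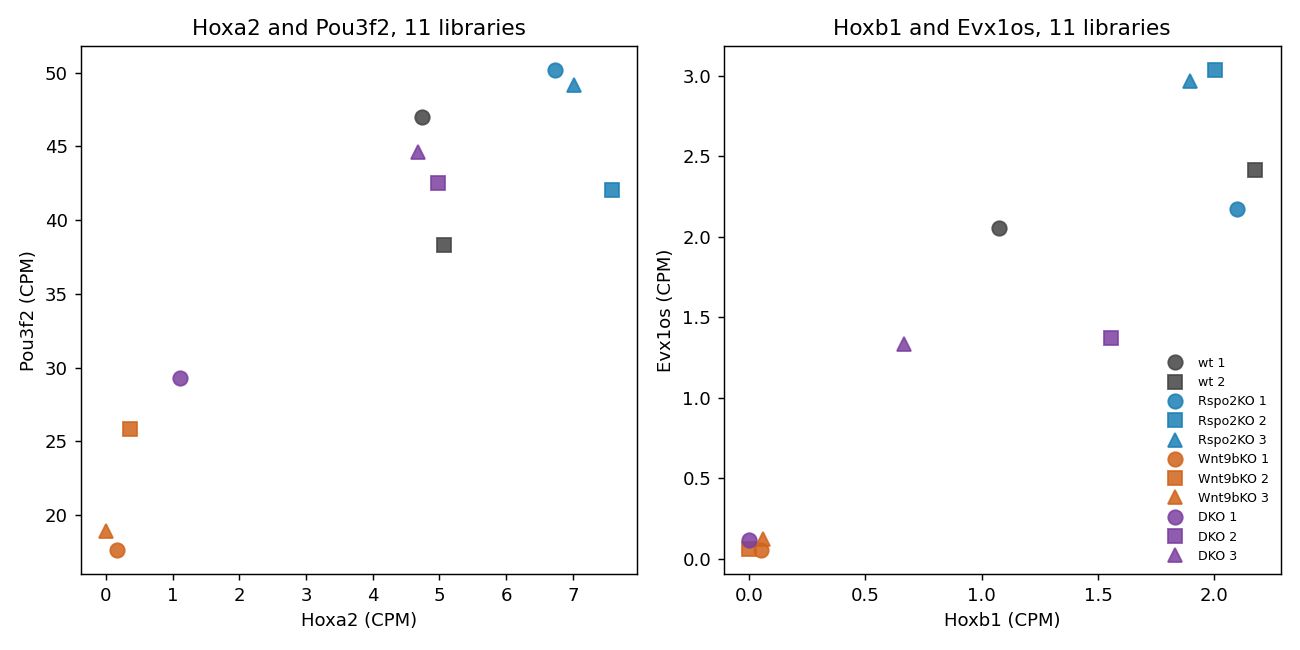
Level in CPM of *Hoxa2* against *Pou3f2* (left) and of *Hoxb1* against *Evx1os* (right), 1 point per library, with colour for genotype and symbol for replicate. In both plots the Wnt9bKO libraries lie at the lower left, with DKO 1 among them or nearest to them and the other 7 libraries further up and to the right.

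The remaining TALE homeobox genes were taken from a list of 18 genes, all tested, which holds the 5 cofactors above. Of the 18, 2 were higher and 4 lower in Wnt9bKO than in wt, with a median log2 fold change of -0.08 beside 0.01 over all genes. In DKO against wt 3 were higher and 2 lower with a median of 0.03. In Rspo2KO against wt edgeR called 0 and DESeq2 called 0, with 2 at an unadjusted p below 0.05, and in DKO against Wnt9bKO edgeR called 0 with 1 at an unadjusted p below 0.05, and DESeq2 called *Irx2*. The shares called, 33.3% and 27.8% in Wnt9bKO and DKO against wt, were close to those over all genes. Against Rspo2KO, 4 were higher and 1 lower in DKO, and 4 were higher and 3 lower in Wnt9bKO, which is 27.8% beside 18.2% and 38.9% beside 26.0% of all genes. Counts in DKO rest on few libraries: of the 5 genes called against wt, 1 (*Pknox2*) was called without wt 1, 2 (*Pknox2* and *Tgif1*) without wt 2, without DKO 1 or without DKO 2, and 3 without Wnt9bKO 2 and DKO 3. Against Rspo2KO the 5 became 2 without Rspo2KO 2 or Rspo2KO 3 (*Pbx2* and *Pknox2*), 3 without DKO 1 or DKO 2, and 1 (*Pbx2*) without DKO 1, Wnt9bKO 2 and DKO 3.

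*Pknox1* and *Pknox2* encode PREP proteins, which bind PBX as MEIS proteins do, and they moved in opposite directions. *Pknox2* was at 21.9 and 23.3 CPM in wt, 34.0, 56.4 and 47.6 CPM in Wnt9bKO and 47.8, 44.7 and 40.4 CPM in DKO, and it rose by 1.02 (SE 0.18, adjusted p = 0.000731) and 0.97 (SE 0.18, adjusted p = 0.00135) on the log2 scale. *Pknox1* fell by 0.36 in Wnt9bKO (SE 0.12, adjusted p = 0.0345) and by 0.42 in DKO (SE 0.12, adjusted p = 0.0203). Neither mutant overlapped wt for either gene. How often groups this small separate over all genes was not counted, here or for the members above. *Pknox2* was also above the wt libraries in Rspo2KO, at 31.08, 26.05 and 26.66 CPM, where it was not called.

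*Tgif1*, a TALE repressor that limits retinoic acid and TGF-beta responses, rose by 0.79 in Wnt9bKO (SE 0.14, adjusted p = 0.00105) and by 0.72 in DKO (SE 0.14, adjusted p = 0.00239). Its relative *Tgif2* was lower in DKO against wt (-0.29, SE 0.09, adjusted p = 0.0307). *Irx2*, an Iroquois factor, was at 9.65 and 9.18 CPM in wt, 10.5, 11.2 and 10.4 CPM in Rspo2KO, 4.21, 3.04 and 3.48 CPM in Wnt9bKO, and 4.93, 9.09 and 11.1 CPM in DKO 1, 2 and 3. It was lower in Wnt9bKO against wt (-1.39, SE 0.26, adjusted p = 0.00134), and DKO 1 stood nearest to the Wnt9bKO libraries, as for the *Hox* genes. *Irx3* was higher than in Rspo2KO in both *Wnt9b* mutants (0.77, SE 0.20, adjusted p = 0.0108 in Wnt9bKO and 0.0151 in DKO). *Mkx* was also lower in Wnt9bKO than in wt (-0.61, SE 0.19, adjusted p = 0.0232).

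**Figure D4:**
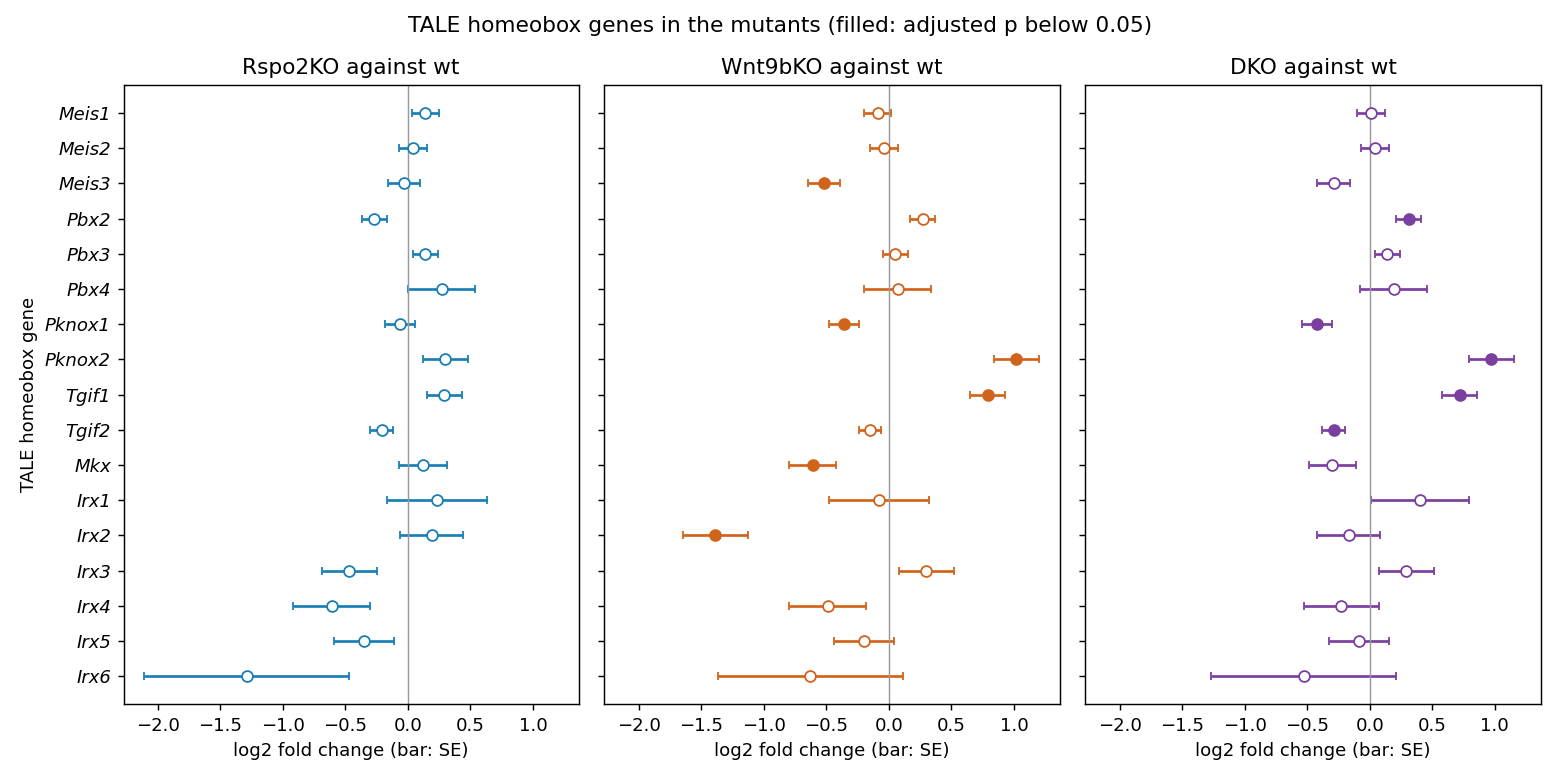
Log2 fold change with its SE for 17 of the 18 TALE genes in Rspo2KO, Wnt9bKO and DKO against wt, where filled points passed an adjusted p of 0.05. *Pknox2* and *Tgif1* lie furthest to the right in Wnt9bKO and DKO, *Irx2* lies furthest to the left in Wnt9bKO (-1.39), and no point is filled for Rspo2KO.

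Genes that HOXA2 is known to act on in the second arch formed a list of 8. For Wnt9bKO against wt 1 was called, 12.5% beside 32.8% of all genes: *Sox9*, the chondrocyte factor, which rose by 0.69 (SE 0.23, adjusted p = 0.0299). *Sox9* was also above the wt libraries (36.35 and 36.97 CPM) in Rspo2KO, at 73.77, 42.98 and 57.23 CPM, where it was not called. For DKO against wt 2 were called, 25.0% beside 27.5%: *Zfp703* rose by 0.82 (SE 0.23, adjusted p = 0.0158) and *Barx1* was lower (-0.98, SE 0.29, adjusted p = 0.0233). Both lay on the same side of wt in Rspo2KO, uncalled. *Zfp703* was at 20.22, 12.51 and 13.52 CPM there against 9.379 and 10.75 CPM in wt. *Barx1* was at 30.48, 31.27 and 33.73 CPM against 45.02 and 55.21 CPM. For DKO against Wnt9bKO edgeR called 0 of 8 (0.121% of all genes were called), with 0 at an unadjusted p below 0.05 and 0 called by DESeq2. The same counts held for DKO against Rspo2KO (18.2% of all genes), and for Rspo2KO against wt edgeR called 0 with 6 at an unadjusted p below 0.05 and DESeq2 called 0. *Alx4* was higher in Wnt9bKO than in Rspo2KO (0.49, SE 0.14, adjusted p = 0.017). The wt libraries, at 185.6 and 163.8 CPM, lay within the Wnt9bKO range (154.7 to 219.1 CPM) and above Rspo2KO (122.9 to 133 CPM).

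PBX proteins are also known to act upstream of WNT and p63 genes in the midfacial ectoderm, held in a list of 5 genes. Of these, *Wnt9b* itself was higher in Wnt9bKO (0.61, SE 0.18, adjusted p = 0.0187) and in DKO (0.68, SE 0.18, adjusted p = 0.0138) against wt, 1 of 5 called (20.0%) in each, beside 32.8% and 27.5% of all genes. *Trp63*, which encodes p63, was higher than in Rspo2KO in Wnt9bKO (0.45, SE 0.15, adjusted p = 0.0396) and in DKO (0.54, SE 0.15, adjusted p = 0.024), again 1 of 5 in each, beside 26.0% and 18.2%. For Rspo2KO against wt and for DKO against Wnt9bKO, where 0.0346% and 0.121% of all genes were called, edgeR called 0 of the 5, with 0 at an unadjusted p below 0.05 and 0 called by DESeq2.

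Retinoic acid induces the anterior *Hox* genes, and 13 genes of its synthesis, breakdown and reception were all tested. For Wnt9bKO against wt 2 were higher and 2 lower, 30.8% beside 32.8% of all genes. *Rara*, a retinoic acid receptor, rose by 0.87 (SE 0.17, adjusted p = 0.00133) and *Rarb*, a receptor that is itself induced by retinoic acid, rose by 0.32 (SE 0.12, adjusted p = 0.043). *Crabp2*, which carries retinoic acid to its receptors, fell by 0.77 (SE 0.16, adjusted p = 0.00219), and *Cyp26a1*, which breaks retinoic acid down, fell by 0.81 (SE 0.29, adjusted p = 0.0415) with overlapping groups. In DKO against wt *Rara* rose by 0.79 (SE 0.17, adjusted p = 0.00319) and *Crabp2* fell by 0.64 (SE 0.16, adjusted p = 0.00814), 15.4% of the list beside 27.5%. Against Rspo2KO 1 was higher (*Rara*) and 2 lower (*Crabp2* and *Cyp26c1*) in DKO (23.1% beside 18.2%), and 1 was higher (*Rara*) and 3 lower (*Crabp2*, *Cyp26c1* and *Cyp26a1*) in Wnt9bKO (30.8% beside 26.0%). For DKO against Wnt9bKO and for Rspo2KO against wt edgeR called 0 of 13, with 1 at an unadjusted p below 0.05 in each, and DESeq2 called 0.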

How the data were processed

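Facial process explants of 4 genotypes were profiled by RNA sequencing. The deposited values are raw counts, whole numbers of reads per Ensembl gene. According to the methods, the authors used Cutadapt for trimming, STAR for alignment to GRCm38 and HTSeq-Count for counting. The strand setting and annotation release are not given in the sources used here. Names, positions, exon lengths and GC content were taken from a GRCm38 annotation, and promoters from RefSeq.

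After filterByExpr, edgeR 4.0.16 (with limma 3.58.1 in R 4.3.3) estimated 1 mean for each genotype by quasi-likelihood from the 11 libraries together, with TMM factors of 0.9152 to 1.096. Tests were two-sided, with Benjamini-Hochberg adjustment over 17317 genes. Ratios of reads carry exact 95% binomial intervals, and these and floors of 3 reads cover counting error only. As alternatives, DESeq2 1.42.0, RLE or upper-quartile factors, other filters on low counts, models of only the groups compared, a replicate block, offsets for GC content and length (loess), 1.5-fold thresholds and omission of libraries were tried. The study's methods name DESeq2 with a p threshold of 0.05, not said to be adjusted, and 1.5-fold. Figures were drawn with Python 3.11.15 and matplotlib 3.10.9.

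The 7 genes and all lists were chosen with earlier results of these data known. From lists outside the TALE and *Hox* genes, up to 4 called genes of smallest p per comparison were named, and TALE and *Hox* genes with a mean of at least 1 CPM could all be named. Genes most like *Hoxa2* or *Hoxb1* were the closest 5 by Pearson correlation of log2 CPM with a prior count of 2. The methods give 3 samples per genotype, and 2 wt libraries were analysed here. Some genes of the lists are not reported here.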

Additional observations from a re-analysis of the deposited data

How the results depend on the processing

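The counts of the 7 genes called moved as follows. For Wnt9bKO against wt 3 became 6 with the offset for GC content and length (adding *Meis1*, *Meis2* and *Pbx2*), also with the replicate block. For DKO against wt 1 became 2 with the offset and the block, and 0 without the libraries labelled Wnt9bKO 2 and DKO 3, without these and DKO 1 (chosen after the data were seen), and with a 1.5-fold threshold beside the unadjusted or the adjusted p. For DKO against Wnt9bKO 1 became 2 without a low-count filter, without DKO 1, Wnt9bKO 2 and DKO 3 together and with the unadjusted p and 1.5-fold. It became 0 with only the groups compared and with at least 10 reads in every library, a filter that removes both *Hox* genes. For DKO against Rspo2KO 1 became 3 without a low-count filter and with the unadjusted p and 1.5-fold. For Wnt9bKO against Rspo2KO 4 became 2 with at least 10 reads in every library and with 1.5-fold and either p. For the interaction 0 became 2 without a low-count filter and with the unadjusted p and 1.5-fold, and 1 without DKO 1, Wnt9bKO 2 and DKO 3. Leaving out 1 library at a time gave 0 to 1 for DKO against wt (without DKO 2, as without a low-count filter, the 1 was *Hoxb1* and not *Pbx2*), 0 to 2 for DKO against Wnt9bKO, 1 to 2 for DKO against Rspo2KO and 0 to 1 for the interaction. The causes were not tested.

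Over the 10 called values, all 215 alternative values kept their sign and 202 kept their call, among them 15 of 22 for *Pbx2* in DKO against wt. These values were picked as called and the alternatives reuse the same libraries, so the tally is a description and no independent support. No source ties the replicate numbers to a litter or batch. Deviations from the genotype means correlated at -0.105 to 0.236 over the 15 same-numbered pairs (median 0.066, above 0.1 in 3). Over the 30 others the median was -0.024 (above 0.1 in 1). The rule used, that every same-numbered pair pass 0.1, was strict and was not met, so the libraries were not treated as paired. Since deviations within a genotype sum to 0, these correlations depend on each other and cannot decide whether the numbers mark pairs. With the replicate block alone, *Hoxa2* changed by -4.84 and *Pbx2* by 0.31 (now called) in Wnt9bKO against wt. *Meis3* lost its call in Wnt9bKO against wt (-0.41) without DKO 1, Wnt9bKO 2 and DKO 3. Few reads limit the *Hox* genes, most of all *Hoxb1* with 2 reads in Wnt9bKO.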
